A study of Mus musculus with 16 samples.

Results

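The comparison described here sets LKR10 cells that carried a hairpin against Ankrd35 beside LKR10 cells that carried a hairpin against GFP, both grown as a monolayer (2D). It takes 8 of the 16 libraries of the series, 4 labelled 2D shAnkrd35 and 4 labelled 2D shGFP, chosen by their labels alone. It covers 12036 of the 12321 genes in the deposited table, those with at least 1 CPM (1 read per 1000000 reads of a library, scaled by its effective size) in at least 4 of the 8 libraries. LKR10 is a mouse lung adenocarcinoma cell line, so every library stands for 1 cell line and its genotype. Both groups received their hairpin in a lentiviral pLKO vector, were kept in puromycin (4 ug/ml) over 48 h and grew for a further 96 h, in serum-containing DMEM, before RNA was taken. The other 8 libraries carry the same hairpins and were grown in methylcellulose (3D); they enter only where the hairpin effect in 2D was tested against that in 3D. The sources used here do not give the hairpin sequences, the number of hairpins per gene or whether replicates were separate transductions. The p-values therefore measure only the spread between these libraries, and effects of lost Ankrd35 and effects of the hairpin on other RNAs cannot be told apart.

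Ankrd35 encodes a protein with ankyrin repeats, a fold through which many proteins bind partners. RNA abundance in such a line reflects its signalling state, its supply of nutrients and its lineage programme. Among the programmes measured here, ATF4 is the transcription factor of the integrated stress response: when amino acids run short or unfolded protein builds up in the endoplasmic reticulum (ER), kinases slow general translation while ATF4 is made, and ATF4 raises genes for amino acid synthesis, amino acid uptake and tRNA charging.

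The targeted gene did not settle the labels. Ankrd35 (mm10 chr3:96670131-96691032) had 2, 3, 6 and 7 reads in the shGFP libraries and 2, 6, 7 and 1 reads in the shAnkrd35 libraries. The groups overlapped fully, at 0.219 ± 0.124 CPM against 0.187 ± 0.137 CPM (mean ± SD, n = 4 each). A two-sided exact permutation test gave p = 0.657, where the smallest p that 70 assignments allow is 0.0286. At this depth a knockdown of Ankrd35 RNA was not detectable, and group names below are those of the labels.

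The 8 libraries held between 19700633 and 25587625 reads over genes. The first principal component carried 70.6% of the variance and separated the groups, with shGFP libraries between -37.3 and -10.9 and shAnkrd35 libraries between 10.1 and 38.1. Replicate 1 of shAnkrd35 stood apart from its group: it lay at 10.1 while the other 3 lay at 23.1 to 38.1, and replicate 1 of shGFP was the control library nearest to it, at -10.9. For 289 genes replicate 1 of shAnkrd35 lay far below the other 3 and for 293 far above (by Dixon's test), against 22 to 58 genes in each direction for the other 3 libraries of its group. The median SD over genes was 0.14 on the log2 scale in shAnkrd35, 0.0918 without replicate 1, and 0.102 in shGFP. The libraries also differed by base composition. Deviations from a gene's mean correlated with its exonic GC content at Spearman's rho of -0.52 to 0.17 in the shGFP libraries and 0.08 to 0.53 in the shAnkrd35 libraries, and the log2 fold changes followed GC content (rho 0.39) and exonic length (rho -0.34) across 12008 genes, which are not independent replicates.

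**Figure D1:**
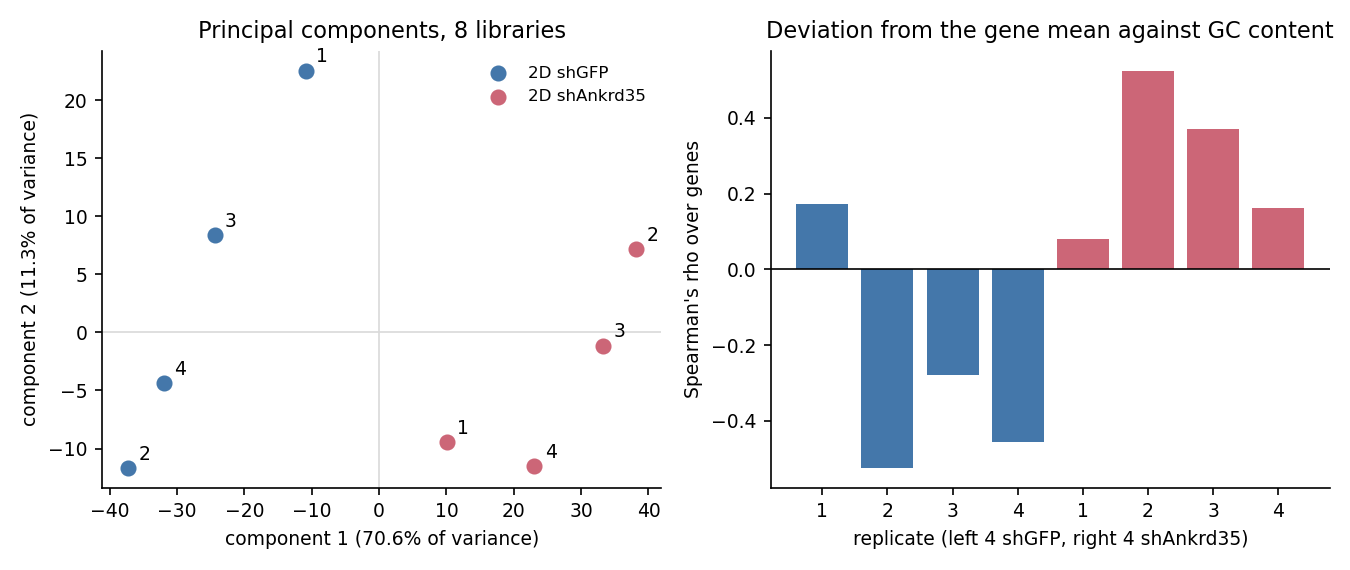
The left panel plots the 8 libraries on principal components 1 and 2 of the log2 CPM, numbered by replicate, and the right panel gives for each library Spearman's rho, over genes, between the deviation from the gene mean and exonic GC content. The groups lie on opposite sides of component 1, replicate 1 of each group lies nearest to the other group, and 3 of 4 shGFP libraries have a negative rho while all 4 shAnkrd35 libraries have a positive one.

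With limma and Benjamini-Hochberg adjustment, 3028 genes rose (25.2% of those tested) and 2816 fell (23.4%) at an adjusted p under 0.05, 48.6% in all; these shares are the background for every list below, and "rose" and "fell" mean this call. At least 2-fold, 239 rose (1.99%) and 369 fell (3.07%); without replicate 1 of shGFP 580 fell so far, and without its replicate 2, 239. The median log2 fold change of all genes was 0.01. A gene near or under 1 CPM in 1 group could pass the filter through the other group alone. Such a gene could only be seen to change in 1 direction. Among those named below are Tnc, Mmp10, Ctse, Trf, Krt7 and Hif3a, which rose, and Col6a3 and Grem1, which fell. Without replicate 1 of shAnkrd35, 3568 rose (29.6%) and 3230 fell (26.8%), 56.5% in all, and 2962 and 2659 of these were also called with all 8 libraries. After each library's trend with GC content and length was subtracted, 3115 rose (25.9%) and 2935 fell (24.4%); 2312 and 2170 were shared, and 9 calls had the opposite sign.

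Epithelial markers were abundant in every library, with 5 of 6 measured and a summed level of 5261 to 5760 CPM in shGFP and 7026 to 8553 CPM in shAnkrd35. Of markers of other cell types, 7 of 10 fibroblast genes had values, summing to 39.0 to 44.4 CPM in shGFP and 22.1 to 23.5 CPM in shAnkrd35, and 5 of them fell. Macrophage markers had values for 3 of 8 (Cd14, Cd68 and Lyz2), at 41.4 to 42.7 CPM against 79.5 to 87.9 CPM, and endothelial markers for 2 of 8, at 3.14 to 4.38 CPM against 8.10 to 9.45 CPM. The remaining ones, and all lymphocyte and erythroid markers, were not analysed here, and the part of other cells in the results was not tested. In bulk RNA, fewer cells of a type and less RNA per cell cannot be told apart. Transcripts tied to RNA quality (4 of 6 measured) summed to 2183 to 3357 CPM in shGFP and to 1174 to 4601 CPM in shAnkrd35, where replicate 1 held the highest value.

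The ATF4 pathway was lower in every shAnkrd35 library. Of 15 regulators of the pathway tested, 9 fell and 1 rose, and of 32 target genes 29 fell and 1 rose, with medians of -0.57 and -0.71 on the log2 scale against 0.01 for all genes. Relative to the shGFP mean, the median target stood at -0.75, -0.65, -0.68 and -0.69 in the 4 shAnkrd35 libraries and between -0.06 and 0.05 in the shGFP libraries, so replicate 1 did not differ in this respect. With the GC and length trend removed, 31 of the 32 targets fell.

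Among the regulators, Atf4 itself measured 543, 541, 559 and 545 CPM with shGFP and 259, 354, 315 and 313 CPM with shAnkrd35. The groups did not overlap (17.7% of all genes tested were lower without overlap), and Atf4 fell by 0.83 on the log2 scale (SE 0.08, adjusted p = 6.9e-05). Ddit3, which encodes the stress-induced factor CHOP, went from 79.1, 79.6, 78.8 and 69.3 CPM to 19.6, 29.5, 27.6 and 26.3 CPM; again the groups did not overlap. Atf5, a related factor that is translated under the same stress, fell by 0.66, Atf3 by 1.08, Cebpg, which encodes a dimer partner of ATF4, by 1.06, and Jdp2 by 0.57. The member that rose was Eif2ak4, which encodes the amino acid sensing kinase GCN2, at 31.2 ± 0.982 against 37.4 ± 0.798 CPM (SD, n = 4 each).

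Trib3, a pseudokinase induced by ATF4 and CHOP, showed the clearest separation among the targets. It measured 297, 268, 295 and 275 CPM with shGFP and 77.2, 89.2, 73.5 and 73.2 CPM with shAnkrd35, with log2 fold change -1.86 (SE 0.07, adjusted p = 9.6e-07). Vldlr, a lipoprotein receptor, measured 122, 147, 143 and 144 CPM against 55.4, 43.6, 45.3 and 49.0 CPM. Asns, which makes asparagine, measured 504, 445, 526 and 483 CPM against 282, 255, 236 and 222 CPM. In all 3 genes every shAnkrd35 library lay below every control library. Soat2, a sterol acyltransferase, fell by 1.31 and Mthfd2, a mitochondrial folate enzyme, by 0.88. Ddit4, an inhibitor of mTORC1 signalling that also answers to other stresses, was the target that rose, from 219.6 ± 13.9 to 292 ± 18.7 CPM, by 0.41 on the log2 scale and by 0.17 with the trend removed.

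**Figure D2:**
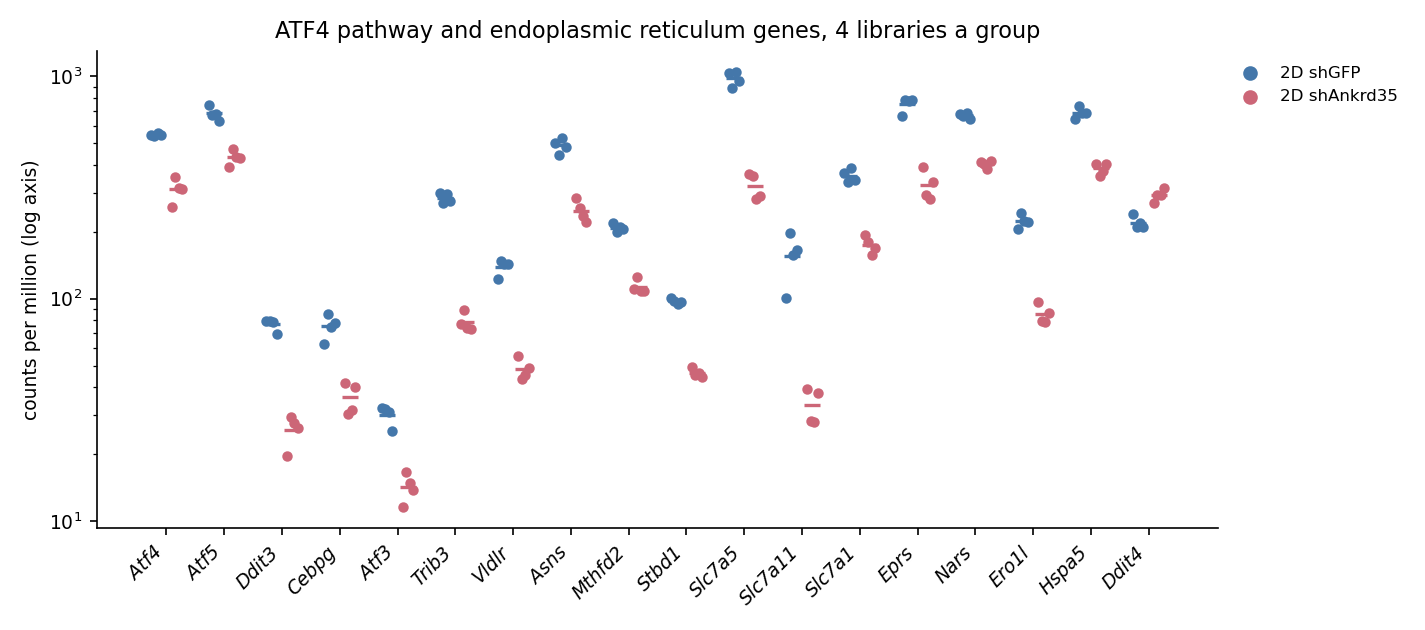
CPM values on a log axis are plotted for 18 genes of the ATF4 pathway and the ER, each point 1 library (blue shGFP, red shAnkrd35, 4 each in order of replicate) and each bar the group mean. In 17 genes all 4 shAnkrd35 points lie below all shGFP points, and in Ddit4 all 4 lie above. The genes shown were chosen from those named by rule. In the whole lists, 28 of 32 targets and 9 of 15 regulators were lower without overlap. Over all genes tested, 17.7% were lower and 22.7% higher without overlap.

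ATF4 binds, with a C/EBP partner, to an element whose core reads TGATGNAA. RefSeq promoter windows (GRCm38.p6, 250 bases before to 50 after a start) were matched for 26 of the 32 targets, and 9 of the 26 (34.6%) held TGATGNAA on either strand, as did 3 of 14 regulators (21.4%). The share was 2.63% of the 9211 genes tested that have a window and 4.51% of all 27025 genes with one. A match is a description of the sequence and not a measured binding site. The list holds genes taken to be ATF4 targets, so a high share in it says nothing about why they fell. The windows of 5 genes that fell are shown because their members moved together and each holds the core, which is in capitals (as its reverse complement where it lies on the other strand):
Trib3, chr2:152344011-152344310, minus strand: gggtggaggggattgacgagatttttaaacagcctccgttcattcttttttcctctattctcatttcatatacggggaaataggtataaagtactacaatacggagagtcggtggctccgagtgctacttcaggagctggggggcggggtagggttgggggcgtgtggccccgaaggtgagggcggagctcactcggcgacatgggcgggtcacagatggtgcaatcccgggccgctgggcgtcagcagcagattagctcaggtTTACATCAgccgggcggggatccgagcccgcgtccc
Asns, chr6:7693160-7693459, minus strand: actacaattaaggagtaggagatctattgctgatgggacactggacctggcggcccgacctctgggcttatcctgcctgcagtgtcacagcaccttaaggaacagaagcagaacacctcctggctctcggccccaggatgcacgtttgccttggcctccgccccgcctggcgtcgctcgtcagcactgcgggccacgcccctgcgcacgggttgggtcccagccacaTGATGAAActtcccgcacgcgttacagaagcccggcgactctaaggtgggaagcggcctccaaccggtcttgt
Vldlr, chr19:27216770-27217069, plus strand: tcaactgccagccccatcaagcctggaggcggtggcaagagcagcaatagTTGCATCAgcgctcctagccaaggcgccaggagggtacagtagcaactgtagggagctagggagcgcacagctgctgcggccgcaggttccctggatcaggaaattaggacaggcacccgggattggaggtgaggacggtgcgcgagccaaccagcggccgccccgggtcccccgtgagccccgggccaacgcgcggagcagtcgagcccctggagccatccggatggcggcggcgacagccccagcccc
Slc7a11, chr3:50443564-50443863, minus strand: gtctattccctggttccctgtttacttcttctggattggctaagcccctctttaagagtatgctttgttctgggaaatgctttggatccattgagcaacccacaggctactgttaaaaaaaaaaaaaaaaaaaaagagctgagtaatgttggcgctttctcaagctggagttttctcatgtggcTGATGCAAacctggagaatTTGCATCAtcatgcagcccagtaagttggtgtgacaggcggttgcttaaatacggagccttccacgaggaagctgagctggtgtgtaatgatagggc
Atf3, chr1:191183284-191183583, minus strand: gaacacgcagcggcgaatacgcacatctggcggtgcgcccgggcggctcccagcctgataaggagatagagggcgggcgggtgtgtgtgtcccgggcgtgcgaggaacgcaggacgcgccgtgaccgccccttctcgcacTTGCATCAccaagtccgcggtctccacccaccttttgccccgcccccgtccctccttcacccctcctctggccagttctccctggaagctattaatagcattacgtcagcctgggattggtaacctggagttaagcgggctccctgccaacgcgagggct
Slc7a11 held the core 2 times, once on each strand, and the other 4 windows held it once.

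Amino acid transporters fell more often than they rose. The lists share members, so their counts are not independent. Slc7a5 and Slc7a11 here, and Asns, Pycr1, Mthfd2, Nars, Aars and Gars in the lists below, are among the members that are also ATF4 targets. Of 24 tested, 15 fell and 4 rose, with a median of -0.38. Slc7a5, the light chain of the large neutral amino acid carrier, measured 1034, 889, 1041 and 951 CPM with shGFP and 364, 355, 282 and 290.2 CPM with shAnkrd35 (log2 fold change -1.61, SE 0.10, adjusted p = 4.4e-06). Slc3a2, the heavy chain it pairs with, fell by 0.74. Slc7a11, the light chain of the cystine and glutamate exchanger, measured 101, 197, 157 and 166 CPM against 39.4, 28.1, 28.0 and 37.6 CPM; the control libraries spread widely and replicate 1 was the lowest of them, yet the groups did not overlap. The cationic carrier Slc7a1 fell by 1.04 and the glutamine carrier Slc1a5 by 0.61, and the glycine carrier Slc6a9 fell by 1.22. The 4 that rose were Slc1a1 (0.83), Slc36a1 (0.43), Slc43a2 (0.29) and Slc38a1 (0.17), and the call of Slc38a1 ended when any 1 of 5 libraries was left out (adjusted p = 0.0509 to 0.0823).

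Of 20 enzymes of amino acid synthesis tested, 9 fell and 3 rose (median -0.10, and -0.21 with the trend removed). The transaminases Gpt2 and Got2 fell by 0.97 and 0.81, and Cth, which makes cysteine, fell by 0.85, while Cbs, the enzyme before it in the same route, rose from 4.84 ± 0.738 to 8.20 ± 0.87 CPM. In the serine and one-carbon list 7 of 24 rose and 7 fell, with a median of 0.00. Psat1 and Psph, which make serine, fell by 0.46 and 0.83, as did Mthfd2 of the mitochondrial folate arm. From the cytosolic arm, Shmt1 rose by 0.56, and Aldh1l1 rose from 1.01, 1.15, 1.05 and 1.11 CPM to 3.64, 3.804, 4.19 and 3.32 CPM.

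The tRNA synthetases moved by compartment. In the cytosolic set, which charges tRNAs for general translation, 13 of 21 fell and 2 rose (median -0.37). Eprs, which charges glutamate and proline, measured 661, 779.8, 777 and 785 CPM with shGFP and 390.1, 292, 280.2 and 333 CPM with shAnkrd35, and replicate 1 of each group lay nearest to the other group. Nars fell by 0.73, Wars by 0.62 and Tars by 0.46, whereas Kars and Qars rose by 0.36 and 0.43. In the mitochondrial set 8 of 17 rose and 1 fell (median 0.15), among them Vars2 (0.40). The exception was Mars2, with a log2 fold change of -0.39 that turned to 0.23 and lost its call when the GC and length trend was removed.

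Chaperones and sensors of the ER were lower: 18 of 29 fell and 3 rose (median -0.35). Ero1l, the oxidase that drives disulfide formation, measured 206, 242, 224 and 221 CPM against 96.2, 79.3, 78.8 and 86.2 CPM, with log2 fold change -1.39 (SE 0.08, adjusted p = 2.6e-06). The chaperone Hspa5 measured 645, 732, 686 and 681 CPM against 405, 358, 377 and 403 CPM. Xbp1, a transcription factor of the unfolded protein response, and Ern1, the kinase and nuclease that splices its RNA, fell by 0.73 and 0.80. Calr (0.32), Sec61b (0.39) and Syvn1 (0.25) rose, but Sec61b and Syvn1 were not called with the trend removed (adjusted p = 0.491 and 0.132), and their calls also ended without any 1 of 6 and of 5 libraries (adjusted p = 0.0549 to 0.0923).

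Matrix genes fell together with these. Of 19 collagen chains tested 12 fell and 2 rose (median -0.57), of 33 laminins and other glycoproteins 20 fell and 6 rose (median -0.27), and of 19 enzymes that modify collagen 10 fell and 2 rose (median -0.25). Col6a1, a chain of the microfibrillar collagen VI, measured 503, 506, 505 and 504 CPM with shGFP and 238, 225, 241 and 233 CPM with shAnkrd35, with an SD of 1.10 and 6.70 CPM. Col6a2 fell by 0.71, and Col6a3, a fibroblast marker at a low level here, from 2.25, 3.25, 2.28 and 1.87 CPM to 0.276, 0.3804, 0.369 and 0.396 CPM. The basement membrane genes Col4a1 and Hspg2 (perlecan) fell by 0.80 and 1.19, the laminin chains Lamb3 and Lamc1 by 0.87 and 0.86, and the fibrillar chain Col5a1 by 0.70. Fn1, which encodes fibronectin, measured 4159.7 to 4540.0 CPM in the control libraries, and 3198 CPM in replicate 1 against 2649 to 2688 CPM in the other 3 shAnkrd35 libraries. Among genes that act on collagen, the chaperone Serpinh1 fell by 0.67, Plod2, a lysyl hydroxylase, by 1.41, and Loxl2, a secreted lysyl oxidase, by 0.65. Against this direction Bmp1, Col7a1, Col27a1 and Tnc rose by 0.51, 0.82, 0.56 and 1.40; Tnc was at 1.18 ± 0.123 CPM and Col7a1 at 3.41 ± 0.801 CPM with shAnkrd35, and Col7a1 lost its call without replicate 3 of either group (adjusted p = 0.060 and 0.054).

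Matrix proteases and their inhibitors had no common direction, with 13 of 35 rising and 10 falling. Metalloproteinases were found on both sides: Mmp28 fell by 0.40, whereas Mmp13 rose from 9.82, 13.1, 9.42 and 10.6 CPM to 25.5, 23.4, 24.2 and 26.2 CPM, Mmp3 by 1.42 and Mmp10 by 2.15 on the log2 scale, the last at 2.74 ± 0.693 CPM. Timp3, an inhibitor held in the matrix, and Plau, the urokinase protease, fell by 0.90 and 0.93. Of 14 integrin subunits 4 fell and 3 rose. Itga6, the laminin receptor subunit, measured 136, 147, 149 and 149 CPM against 70.5, 53.4, 57.3 and 65.4 CPM, Itgav and Itgb1 fell by 1.02 and 0.56, and Itga2 rose by 0.56, a call that ended without any 1 of 6 libraries, replicate 1 of shAnkrd35 among them (adjusted p = 0.0506 to 0.0881).

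**Figure D3:**
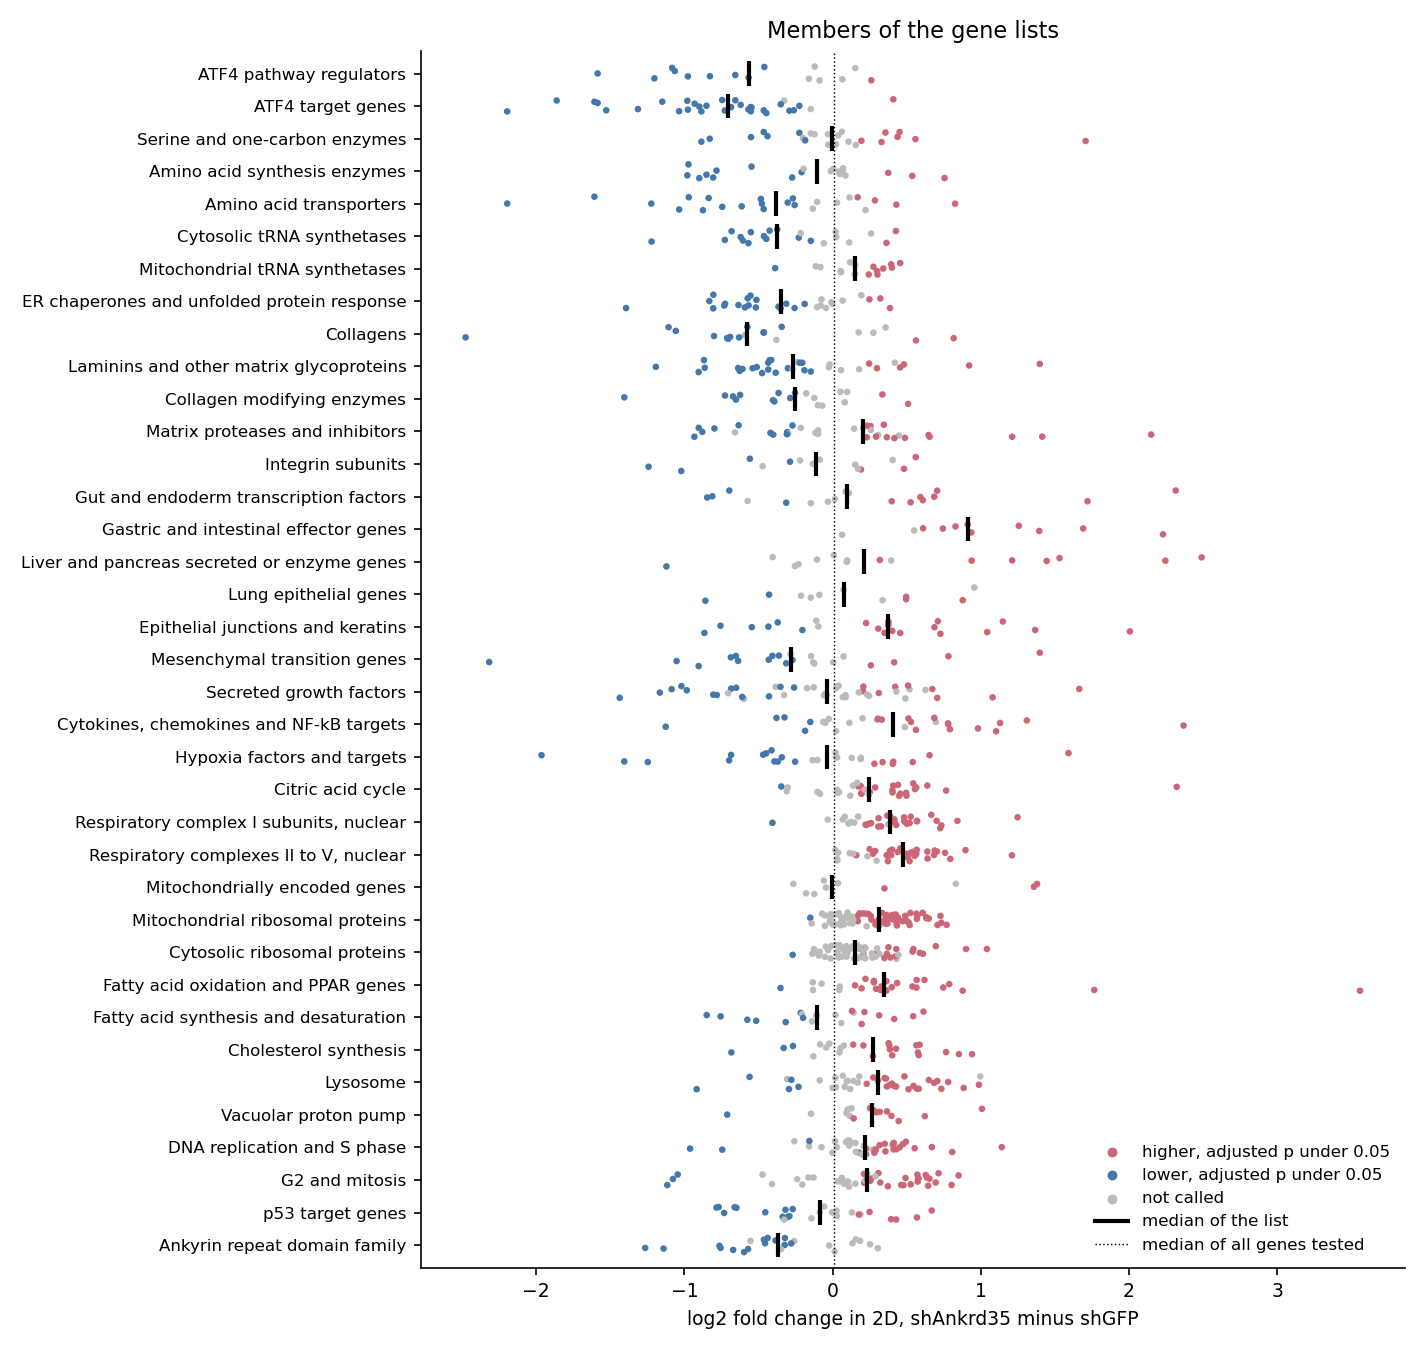
Each point is the log2 fold change in 2D (shAnkrd35 minus shGFP) of 1 member of 37 gene lists, coloured by its call, with the median of each list as a bar and the median of all genes tested as a dotted line. The ATF4, amino acid synthesis, amino acid transporter, ER and collagen lists lie to the left, with medians from -0.71 to -0.10. The serine and one-carbon list has a median of 0.00. The nuclear respiratory, lysosomal and gastrointestinal effector lists lie to the right, with medians up to 0.91.

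Gastric and intestinal effector genes were higher at low to moderate levels, while the other gut and liver lists moved less. Of 18 gut and endoderm transcription factors 8 rose and 4 fell (median 0.10), and of 11 gastric and intestinal effector genes 9 rose and 0 fell (median 0.91; 0.95 without replicate 1 and 0.86 with the trend removed). The effector list holds 34 genes, of which only these 11 were in the deposited table. Members low in shGFP, such as Ctse, could pass the filter through the shAnkrd35 libraries alone, and such members could only be seen to rise. Hnf4a (chr2:163506808-163572910), a nuclear receptor of liver and gut epithelium, measured 2.17, 1.99, 1.38 and 1.87 CPM with shGFP and 8.93, 8.18, 10.2 and 10.8 CPM with shAnkrd35, with log2 fold change 2.32 (SE 0.16, adjusted p = 7.8e-06). Ehf, an epithelial ETS factor, rose by 1.72, the intestinal factor Cdx2 from 14.4 ± 1.34 to 23.5 ± 2.11 CPM, and Foxa1 and Sox9 by 0.61 and 0.59. Klf4 went the other way, at 148, 148, 145 and 141 CPM against 90.8, 88.9, 82.3 and 97.5 CPM. Onecut2 fell by 0.81, while the call of Klf5 (-0.31) ended without any 1 of 6 libraries (adjusted p = 0.0612 to 0.103), with the trend removed and under either rescaling. With the trend removed Onecut2 was at -0.36.

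Among the effectors, Ctse, a gastric protease, measured 0.805, 0.838, 0.904 and 1.01 CPM against 4.92, 4.61, 4.05 and 4.41 CPM. Cldn2, a claudin that forms cation pores, was the most abundant of those named, at 293, 286, 281 and 296 CPM against 523, 530.1, 571 and 552 CPM. The cadherin Cdh17 and the galectin Lgals4 rose by 1.69 and 1.26. In none of these 4 genes did the groups overlap (22.7% of all genes tested were higher without overlap). Of 16 liver and pancreas genes 7 rose and 1 fell (median 0.21, and 0.08 with the trend removed). The SD between replicates of that list's median was 0.225, larger than the shift. Agt (angiotensinogen) measured 1.93, 1.94, 1.62 and 1.47 CPM against 8.70, 7.61, 9.49 and 8.42 CPM, and Rbp4, which carries retinol, 42.2, 38.4, 36.1 and 36.5 CPM against 78.4, 94.2, 92.0 and 90.9 CPM. Trf (transferrin) rose by 2.49 to 3.61 ± 0.995 CPM, Cela1 by 1.53 and Hp (haptoglobin) by 1.45. The letters CAAAGTCCA, a run of the kind HNF4 binds, were found on neither strand in the 8 windows of the gastric and intestinal effectors or the 12 of the liver and pancreas genes that had one, and in 0.423% of windows of genes tested, which says only that these letters are not in those 300 bases. Lung epithelial genes had no common direction, with 3 of 11 rising and 2 falling, and the basal cell factor Trp63 fell by 0.86.

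Genes of epithelial junctions and keratins rose more often than they fell, 14 against 6 of 23 (median 0.38), and mesenchymal transition genes fell more often than they rose, 11 against 4 of 21 (median -0.28). With the trend removed, 9 mesenchymal transition genes fell and 5 rose (median -0.16). Krt18, one of the most abundant RNAs per length, measured 1781, 1687, 1816 and 1760 CPM against 3019, 2959.8, 2841 and 2546 CPM. Krt7 rose from 0.558 ± 0.248 to 2.40 ± 0.271 CPM, Cldn6 by 1.37 and the tight junction gene Cgn by 0.71. Like Ctse, Krt7 passed the filter through the shAnkrd35 libraries. Desmosomal Dsp and Pkp1 fell by 0.54 and 0.86. Cdh1, which encodes E-cadherin, had a log2 fold change of -0.20 that was called, but not after quantile normalization or median centring (adjusted p = 0.0512 and 0.0865), nor without replicate 4 of shGFP or replicate 2 of shAnkrd35 (adjusted p = 0.0504 and 0.0534). With the trend removed the rise of Krt18 was 0.39. On the mesenchymal side Snai2, a repressor of epithelial genes, measured 44.1, 56.7, 50.8 and 48.4 CPM against 26.6, 23.2, 22.3 and 24.0 CPM, Grem1, a BMP antagonist, fell by 2.32 to 0.474 ± 0.17 CPM and Sparc fell by 0.90. Acta2 (smooth muscle actin) went against them and rose by 0.78. The fibroblast markers given above fell beside these genes; their part was not tested.

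Secreted factors changed in both directions. Of 43 growth factors 9 rose and 13 fell (median -0.04), and with the trend removed 8 rose and 19 fell (median -0.16). The EGF receptor ligand Ereg measured 29.3, 40.4, 32.3 and 33.1 CPM against 17.0, 13.8, 13.6 and 15.5 CPM, which left Ereg at -1.17, or -0.74 with the trend removed. Angptl6 fell by 1.44 and the angiogenic factor Vegfa by 0.68. Bmp7 rose by 1.66 to 3.81 ± 0.536 CPM, and Ctgf, a matricellular target of YAP, from 26.6 ± 3.96 to 56.4 ± 8.06 CPM. Igfbp3, which binds insulin-like growth factors, measured 16.3, 16.9, 14.9 and 14.6 CPM against 37.97, 43.6, 45.02 and 47.05 CPM, and Stc1, a secreted glycoprotein hormone, 47.6, 48.8, 41.6 and 47.7 CPM against 106, 113, 135 and 131 CPM.

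Of 28 cytokines, chemokines and NF-kB targets 14 rose and 5 fell (median 0.41). Il33, an alarmin of epithelial cells, measured 1.45, 1.73, 1.52 and 1.77 CPM with shGFP and 9.16, 8.18, 9.77 and 7.83 CPM with shAnkrd35, with log2 fold change 2.37 (SE 0.13, adjusted p = 2.6e-06). The neutrophil chemokine Cxcl5 rose by 1.31, the adhesion receptor Icam1 by 0.78 and Nfkbia, the inhibitor that NF-kB induces, by 0.51. Replicate 1 was the lowest shAnkrd35 library for Cxcl5 (10.5 against 12.0 to 15.2 CPM) and for Nfkbia (38.4 against 46.4 to 47.3 CPM). Ptgs2, the inducible prostaglandin synthase, fell from 120, 201, 132 and 138 CPM to 70.3, 61.2, 64.2 and 69.8 CPM. With the trend removed Ptgs2 was at -0.72 and Nfkbia at 0.26, both still called. Nfkb1 had a log2 fold change of -0.32, and of -0.06 without a call (adjusted p = 0.534) once the GC and length trend was removed.

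Hypoxia factors and targets held 7 of 28 that rose and 12 that fell (median -0.04, and -0.10 without replicate 1 of shAnkrd35). Epas1, which encodes the oxygen-regulated factor HIF-2 alpha, measured 36.7, 39.4, 41.9 and 40.7 CPM against 10.5, 11.1, 8.34 and 10.7 CPM, with log2 fold change -1.96 (SE 0.10, adjusted p = 1.9e-06). The mitophagy receptor Bnip3l fell by 1.25. Hif3a, a further subunit of the family, rose by 1.59 from 0.699 ± 0.219 to 2.22 ± 0.138 CPM. Like Ctse, Hif3a could pass the filter through the shAnkrd35 libraries alone, so only a rise could be seen.

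Nuclear genes of mitochondrial metabolism were higher. In the citric acid cycle list 20 of 33 rose and 1 fell (median 0.24), among complex I subunits 26 of 37 rose and 1 fell (median 0.39), among subunits of complexes II to V 31 of 40 rose and 0 fell (median 0.48), and among mitochondrial ribosomal proteins 48 of 76 rose and 1 fell (median 0.31). Replicate 1 shifted least: the median subunit of complexes II to V stood at 0.16 in replicate 1 and at 0.57, 0.53 and 0.54 in the other 3, relative to the shGFP mean. With the GC and length trend removed, 20 complex I subunits rose and 5 fell, and 33 mitochondrial ribosomal proteins rose and 3 fell (medians 0.20 and 0.17). Ogdhl, a relative of the oxoglutarate dehydrogenase, measured 7.12, 5.92, 6.71 and 6.18 CPM with shGFP and 37.2, 35.0, 31.1 and 28.2 CPM with shAnkrd35. Ndufb8 and Ndufa3 of complex I rose by 0.73 and 0.84, Sdhb of complex II by 0.56, Uqcrc1 of complex III by 0.52 and the ribosomal protein gene Mrps2 by 0.63. The members against the direction were Pdhb (-0.35), Mrpl24 (-0.15) and Ndufb2 (-0.41); Mrpl24 was not called under quantile normalization (adjusted p = 0.133), nor Ndufb2 with the trend removed (adjusted p = 0.136), and without any 1 of 6 and of 4 libraries these calls ended too (adjusted p = 0.059 to 0.0903). The rises of Sdhb and Ndufa3 were 0.36 and 0.48 with the trend removed.

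Of 10 genes of the mitochondrial genome 3 rose and 0 fell (median 0.00), and 5 rose and 0 fell with the GC and length trend removed (median 0.25). The abundant mt-Co1 measured 7014, 7805, 7488 and 8518 CPM against 10122, 9935, 9703 and 9459 CPM. Its log2 fold change was 0.35, and 0.61 with the GC and length trend removed. After quantile normalization it was 0.00. That scaling gives equal ranks equal values in every library, so a gene of such high rank could hardly change under it. The other named member, mt-Co2, was counted at 2.75 ± 0.583 against 7.64 ± 2.80 CPM, and nuclear copies of mitochondrial genes can share such reads. Counts for cytosolic ribosomal protein genes moved with replicate 1 and with the joint removal of the GC and length trend: 17 of 74 rose and 1 fell with all libraries, 54 rose and 1 fell without replicate 1 of shAnkrd35, and 7 rose and 17 fell with the trend removed. In replicate 1 the median member stood at -0.10 relative to the shGFP mean, and in the other 3 at 0.18 to 0.28. Rpl35, for instance, measured 225 CPM in replicate 1 and 393 to 427 CPM in the others, against 189 ± 14.6 CPM with shGFP; its rise was 0.90, and 0.57 with the trend removed. The log2 fold change of Rplp1 was 0.43 and turned to -0.06 with the trend removed, that of Rps27a was -0.27, and processed pseudogenes of these genes make their counts uncertain.

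Genes of fatty acid oxidation, cholesterol synthesis, lysosomes and the proton pump also rose more often than they fell. Of 28 genes of fatty acid oxidation and PPAR signalling 22 rose and 1 fell (median 0.34). Ech1, an isomerase of beta oxidation, measured 81.1, 75.5, 78.3 and 76.4 CPM with shGFP and 129.9, 153, 154 and 137 CPM with shAnkrd35, without overlap. It rose by 0.88 and the dehydrogenase gene Acads by 0.79, and the lipase inhibitor Angptl4 was at -0.35, a call lost under either rescaling (adjusted p = 0.067 with quantile normalization and 0.0658 with median centring) and without any 1 of 6 libraries (0.067 to 0.0974). Of 21 genes of fatty acid synthesis and desaturation 7 rose and 7 fell, with a median of -0.11 that became 0.04 with the trend removed and -0.16 without replicate 1 of shAnkrd35. In cholesterol synthesis 15 of 25 rose and 3 fell (median 0.27), with Insig1, the sterol-regulated brake on the pathway, at 47.2, 48.4, 46.1 and 47.8 CPM against 73.2, 71.2, 69.3 and 70.2 CPM. Acat2 rose by 0.85 and Hsd17b7 fell by 0.68. In the lysosome list 22 of 41 rose and 5 fell (median 0.31): the protease Ctsa measured 112 ± 1.82 against 222 ± 13.6 CPM and the membrane protein gene Cd63 rose by 0.78, while Mitf, a transcription factor for lysosomal genes, fell by 0.92. Of 16 subunits of the vacuolar proton pump 10 rose and 1 fell, with Atp6v0d1 up by 0.45 (0.21 with the trend removed) and Atp6v1a at -0.71.

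Cell cycle genes rose modestly. In the S phase list 24 of 44 rose and 3 fell (median 0.22), and in the G2 and mitosis list 24 of 45 rose and 3 fell (median 0.23, and 0.37 with the trend removed). The origin licensing factor Cdc6 rose by 0.67, the flap nuclease Fen1 by 1.14, the checkpoint kinase Bub1b by 0.80 and the anaphase activator Cdc20 from 59.7, 56.0, 51.6 and 56.4 CPM to 87.2, 107, 109 and 102 CPM. A few members of the same lists went down, and their control libraries varied. Mki67 measured 129.6, 305, 202 and 269.6 CPM with shGFP and 143, 80.6, 87.6 and 118 CPM with shAnkrd35, so the groups overlapped at replicate 1. Cenpe and Cenpf had log2 fold changes of -1.08 and -1.11, and these calls ended without any 1 of 5 and of 7 libraries (adjusted p = 0.0562 to 0.0843 and 0.0579 to 0.113). Pola1, the catalytic subunit of DNA polymerase alpha, fell by 0.96, a call that ended without any 1 of 3 libraries (adjusted p = 0.0556 to 0.0628). With the trend removed Pola1 was at -0.55 and Cenpf at -0.71, without a call for Cenpf. Of 27 p53 target genes 6 rose and 11 fell (median -0.09), with Trp53 itself up by 0.40, Mdm2 at -0.45 and Gtse1 up by 0.67. The rise of Trp53 was 0.26 with the trend removed. Of 24 other ankyrin repeat domain genes 14 fell and 0 rose (median -0.37; 11 fell and 0 rose with the trend removed, median -0.22), with Ankrd27 at 78.5 ± 4.86 against 46.2 ± 3.55 CPM; 2 rose once replicate 1 of shAnkrd35 was left out.

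**Figure D4:**
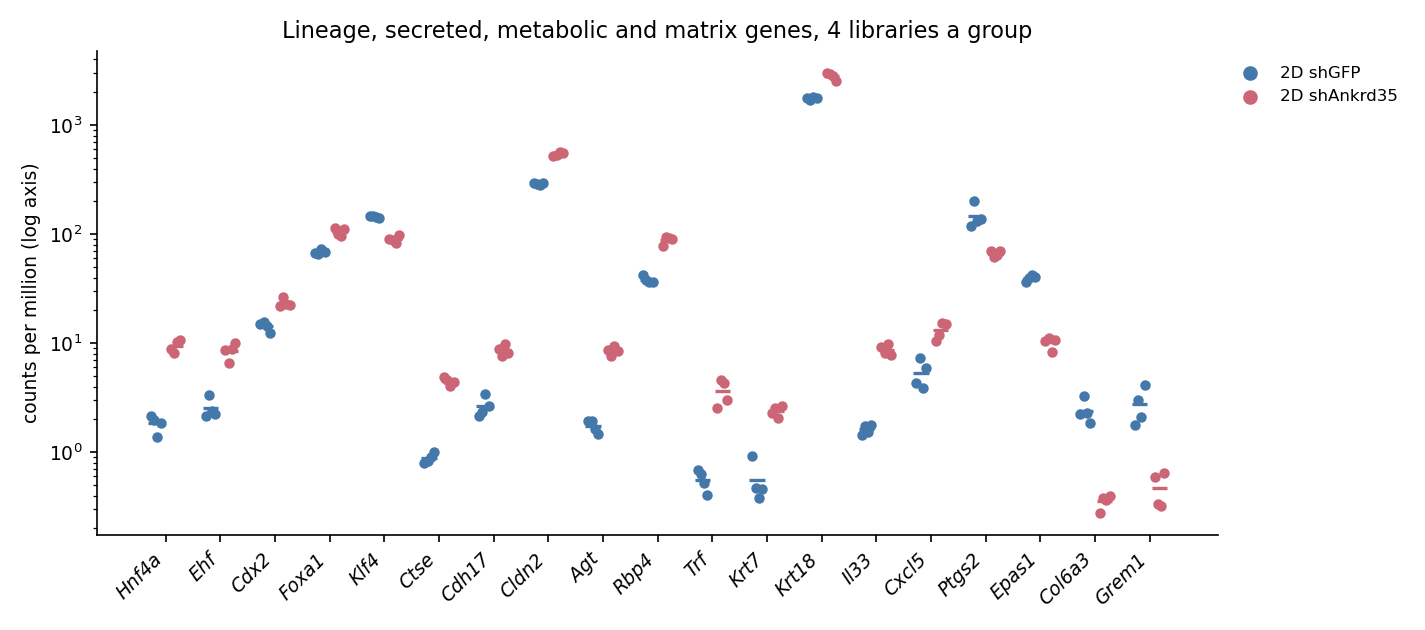
CPM values on a log axis are plotted for 19 genes of lineage, secretion, metabolism and matrix, each point 1 library (blue shGFP, red shAnkrd35, 4 each in order of replicate) and each bar the group mean. Klf4, Ptgs2, Epas1, Col6a3 and Grem1 lie lower in all 4 shAnkrd35 libraries and the other 14 genes lie higher, with Hnf4a shifting from 1.85 to 9.52 CPM on average. The genes shown were chosen from those named by rule. Over all genes tested, 17.7% were lower and 22.7% higher without overlap.

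Outside these lists, Tenm4 had one of the deepest falls. Tenm4 (chr7:96171246-96911093), a teneurin, a transmembrane adhesion protein best known from neurons, measured 83.0, 82.4, 98.0 and 82.6 CPM with shGFP and 21.9, 15.0, 17.1 and 15.997 CPM with shAnkrd35, with log2 fold change -2.31 (SE 0.11, adjusted p = 1.9e-06). Scara5, a ferritin receptor, measured 33.1, 36.7, 32.9 and 33.3 CPM against 8.88, 7.51, 8.62 and 7.53 CPM. Fam20a fell by 2.02, Pkhd1l1 by 1.86 and the receptor gene Calcrl by 2.05. With the GC and length trend removed these were at -2.18, -1.42 and -1.55. The Calcrl controls ranged from 5.47 CPM in replicate 1 to 11.2 CPM. The controls of Tenm4, Scara5 and Fam20a lay close together, but those of some other genes with large falls scattered: Rock1 measured 19.3, 84.1, 33.5 and 59.992 CPM with shGFP and 17.9, 9.22, 11.4 and 16.9 CPM with shAnkrd35, and Eea1 34.1, 108, 57.8 and 86.5 CPM against 22.8, 12.7, 18.2 and 21.2 CPM. In both, replicate 1 of shGFP was the lowest control and close to the shAnkrd35 range, and the log2 fold changes shrank from -1.66 to -1.02 and from -1.83 to -1.43 with the GC and length trend removed. The nuclear RNA Malat1 had the same pattern, with 929.6 CPM in replicate 1 and 1349 to 2133 CPM in the other controls, against 440.3 to 951 CPM with shAnkrd35, so its groups overlapped.

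Among further rises, Des (desmin) measured 5.80, 4.92, 4.90 and 4.76 CPM against 13.7, 14.6, 15.6 and 12.4 CPM, Mcam rose by 1.39, Sncg by 1.41 and Atg9b by 1.48. Rpl17-ps4, a pseudogene with reads that a ribosomal protein gene can share, is uncertain, and lay at 2.76 CPM in replicate 1 against 7.46 to 11.1 CPM in the other shAnkrd35 libraries. Of the most abundant RNAs per length, Lgals1 measured 2276, 2007, 2069 and 1864 CPM against 3105, 3729, 3764 and 3487 CPM, and the ferritin light chain gene Ftl1 rose by 0.84. S100a6 rose by 0.76, with replicate 1 at 601 CPM and the other shAnkrd35 libraries at 944 to 1057 CPM. Rpl41 had a log2 fold change of 0.61 that was not called with the trend removed (adjusted p = 0.123), nor without any 1 of 6 libraries (0.0682 to 0.105). With the trend removed Lgals1, Ftl1 and S100a6 were at 0.36, 0.54 and 0.49. The actin bundling gene Fscn1 fell from 870.4 ± 44.7 to 532 ± 39.4 CPM.

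Leaving out replicate 1 of shAnkrd35 removed 223 of the calls. Among those at 5 CPM or more with the largest changes were Fam126b, Fam199x and Rp2, in which replicate 1 was again the lowest control library and replicate 2 the highest. Other libraries ended these calls as well, 6, 3 and 5 of the 8 in all. Fam199x measured 5.96, 26.2, 10.6 and 21.4 CPM with shGFP and 5.75, 3.66, 5.39 and 5.20 CPM with shAnkrd35, and its log2 fold change was -1.53 without replicate 1 (adjusted p = 0.0534) against -1.46 with it. For Fam126b and Rp2 the values without it were -1.63 and -1.44 (adjusted p = 0.0699 and 0.0659).

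Whether the hairpin effect differed between 2D and 3D was tested as an interaction over all 16 libraries; the effects share no library. The effect in 2D lay above that in 3D for 2297 genes (18.6%) and below it for 2110 (17.1%), 35.8% in all; in 3D itself 1854 genes rose (15%) and 1801 fell (14.6%), 29.7% in all. Of the 32 ATF4 targets 28 lay below and 1 above (median difference -0.68), of the cytosolic tRNA synthetases 14 of 21 below and 1 above, and of the amino acid transporters 14 of 24 below and 3 above. These lists share members, so the counts are not independent. For Trib3 the effect was -1.86 in 2D and -0.25 (SE 0.07) in 3D, for Ddit3 -1.59 and 0.04, for Slc7a5 -1.61 and -0.03 (SE 0.08) and for Ero1l -1.39 and 0.18, and each difference was called. The pathway's level differed between the cultures too: with shGFP, Atf4 averaged 547 CPM in 2D and 137 CPM in 3D, and Trib3 284 and 7.67 CPM.

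Cytokine and cholesterol genes differed in the other direction. Of the 28 cytokines, chemokines and NF-kB targets 20 lay above 0 and 1 below (median difference 0.58), and of 25 cholesterol genes 19 above and 1 below (0.51). Cxcl5 had effects of 1.31 in 2D and -0.31 in 3D, and Insig1 of 0.58 and -0.29. In the subunits of complexes II to V 26 of 40 lay above and 0 below, and in the G2 and mitosis list 25 of 45 above and 2 below. Some single genes moved in opposite directions: Tenm4 changed by -2.31 in 2D and by 0.95 in 3D, Klf4 by -0.70 and 0.70, Cdx2 by 0.71 and -0.74, and Akr1c18, an aldo-keto reductase, by 1.70 and -1.05. Tenm4 was at a low level in 3D, averaging 2.94 CPM with shGFP and 5.72 CPM with shAnkrd35, against 86.5 CPM with shGFP in 2D. Igfbp3 and Cldn2, which rose in 2D, were at -0.04 and 0.00 in 3D. For Col6a1 the effect was -1.11 in both, and no difference was called.

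**Figure D5:**
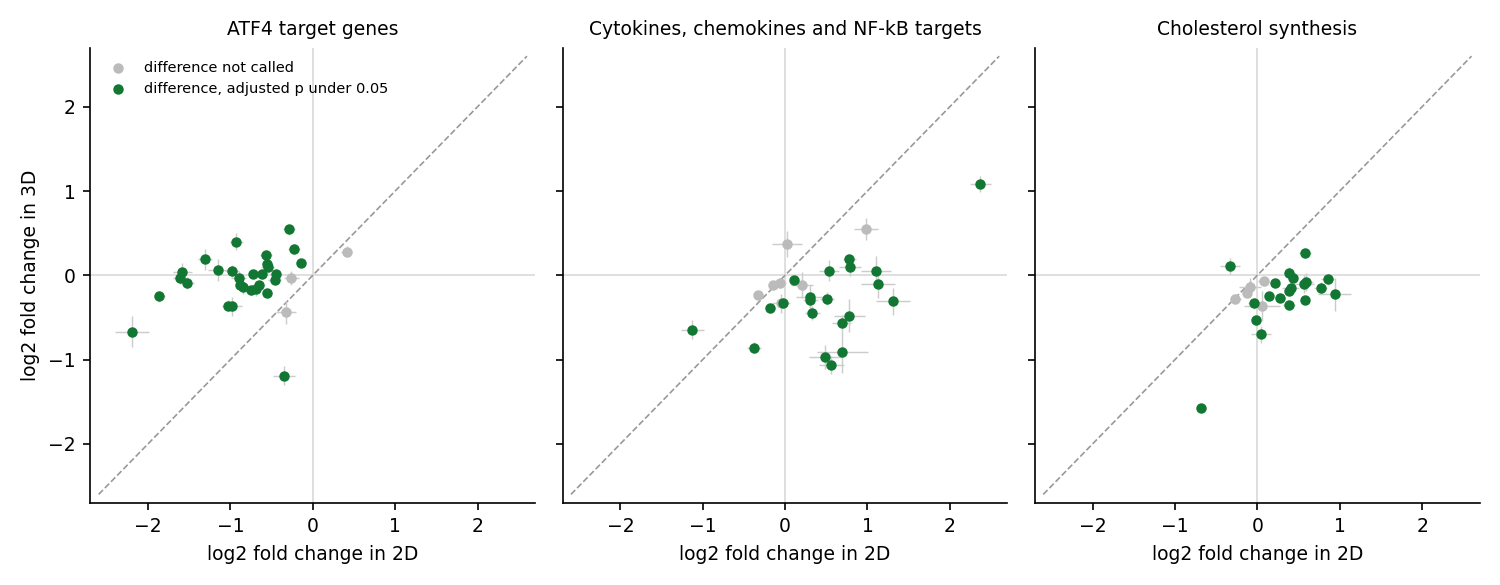
Log2 fold changes (shAnkrd35 minus shGFP) in 2D and in 3D are plotted for the members of 3 lists, with standard errors as bars, the line of equal effect dashed and members with a called difference in green. ATF4 targets spread along the 2D axis with 3D values near 0 (median -0.03), and most cytokine and cholesterol genes lie right of the dashed line, with 3D medians of -0.27 and -0.18.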

How the data were processed

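RNA sequencing libraries of 8 monolayer cultures (4 a group) were compared. The authors deposited log2 CPM values, and edgeR, STAR 2.5.1b and Trimmomatic 0.38 were used with the mm10 build, per the submitters' processing notes; the sources used here do not give the role of each. The values gave back whole reads (100% within 0.01) once a prior count of 2 was taken off, and CPM printed here are free of that prior. Groups came from the sample labels.

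Differences were fitted on the deposited log2 values with limma 3.58.1 (trend, robust; R 4.3.3) over the 8 libraries, with Benjamini-Hochberg adjustment over 12036 genes. Adjusted p-values are limma's throughout, and a fold change on the log2 scale includes the prior, which understates changes of low genes. The fits were tested on simulated data. Differences between 2D and 3D used limma on 16 libraries. Alternatives covered scaling, filters, weights, voom, a replicate block, GC content and length (GENCODE M21), and leaving out each library. Of 12321 symbols 12217 matched GENCODE M21 and 72 more through RefSeq synonyms. Names altered by a leading X or by dots in place of hyphens were restored, 406 in all. Promoter windows are RefSeq's for GRCm38.p6.

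The comparison and the gene lists were chosen with earlier results of these data known, so lists are described by counts and medians without a set test. Genes were named by rule: the 20 largest changes each way at 5 CPM or more without overlap, the 8 most abundant each way past 1.5-fold, up to 6 called members a list with the smallest p and those against its direction, the 10 strongest differences between 2D and 3D each way, and calls lost without replicate 1 of shAnkrd35. Not all genes that the rule names are printed, and some are not reported here. Reads were counted without stated strand use, so overlapping genes cannot be told apart, and counting error adds to the spread between libraries most for genes of a few CPM.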

Additional observations from a re-analysis of the deposited data

Results flagged for a closer look

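In groups of 4 libraries, a single value far from the other 3 was found for 17 of the 184 genes named. Chance trips the test in about 1 group in 20, and both groups of each gene were tested. The named genes are not independent, and whether the 17 differ from what chance gives was not tested. Over all genes, replicate 1 of shAnkrd35 was far below the others of its group for 289 genes and far above for 293. Replicate 1 of shAnkrd35 was the distant library for Hspg2 (703 CPM against 575 to 597), Fn1 (3198 against 2649 to 2688), Lamc1 (349.6 against 285 to 294), Mmp10 (1.70 against 3.00 to 3.13), Nfkbia (38.4 against 46.4 to 47.3) and Rpl35 (225 against 393 to 427). In each of these 6 genes it lay toward the shGFP side. Replicate 1 of shGFP was distant for Vldlr (122 CPM), Eprs (661), Itga6 (136), Krt7 (0.926), Cgn (16.4) and Des (5.80). Other control libraries were distant for Ddit3 (replicate 4, 69.3 CPM), Lgals4 (replicate 4, 3.19), Scara5 (replicate 2, 36.7), Stc1 (replicate 3, 41.6) and Tenm4 (replicate 3, 98.0).

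The hairpin effect differed between 2D and 3D, by the interaction test, most clearly for these genes. The effect in 2D minus that in 3D on the log2 scale was 1.45 for Enpp2, 1.76 for Padi4, 0.91 for Cldn2, 1.32 for Ckb, 1.51 for Igfbp3, 0.80 for Cd14, 1.08 for Tns4, 0.87 for Insig1, 2.75 for Akr1c18 and 0.89 for Hsd17b7. It was -3.26 for Tenm4, -1.39 for Klf4, -1.21 for Myrf, -1.61 for Trib3, -1.57 for Ero1l, -1.11 for Mmp28, -1.57 for Slc7a5, -1.15 for Cyb5r1, -1.09 for Stbd1 and -0.74 for Nars. For Tns4 and Myrf most of the difference lay in 3D, where the effects were -1.12 and 1.06, against -0.04 and -0.15 in 2D.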

How the results depend on the processing

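The counts of genes that rose (3028) and fell (2816) stayed within 1.5 times under every alternative run, from 2214 and 1884 to 4026 and 4036; leaving out 1 library each gave 2420 to 3568 and 2048 to 3230. Counts of genes changed at least 2-fold moved more. The 369 that fell became 202 with the GC and length trend removed, 200 with the replicate block as well, 572 with array weights, 712 without both libraries numbered 1, and 239 (without replicate 2 of shGFP) to 580 (without replicate 1 of shGFP) when 1 library was left out; the 239 that rose became 99 among genes with a mean of at least 5 CPM. Replicate numbers did not pair the libraries (correlations of same-numbered deviations -0.38, -0.49, -0.04 and 0.23): with the replicate block 2214 rose and 1884 fell, and the 2110 genes below 0 in the difference between 2D and 3D became 1291. Tested on the log2 scale without the filter, Ankrd35 gave -0.21 (adjusted p = 0.735), and without 1 library each its difference, -0.0321 CPM with all 8, ran from -0.0784 to 0.0138 CPM. Of 3661 values of 184 named genes under the alternatives, 142 lost and 1 gained a call and 6 changed sign: Mars2 (0.23, with and without the block) and Rplp1 (-0.0641, likewise) with the trend removed, and Tns4, not called with the deposited scaling, with quantile normalization (0.026) and median centring (0.0015). Without 1 library, the calls of 18 named genes ended. The median of lung epithelial genes became -0.0886 at a mean of at least 5 CPM; that of fatty acid synthesis genes 0.0361 with the trend removed, with and without the block; of 740 such medians 636 stayed within the spread between replicates. No cause of these shifts was tested. Genes near 1 CPM rest on about 20 reads a library, and Ankrd35 on 1 to 7.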
